A study of Mus musculus with 4 samples.

Results

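The genes described here are the LIM-homeodomain transcription factors of spinal motor neurons (Isl1, Isl2, Lhx3 and Lhx4), the motor neuron homeodomain factor Mnx1, and the cofactors that bind LIM domains or compete for that binding (Ldb1, Ldb2, Lmo1, Lmo3 and Lmo4). They were chosen by name, as factors, partners and competitors of the motor neuron LIM complex, and make up 10 of the 21822 gene units in the count tables. The cells were iMN-ESCs, mouse embryonic stem cells (background strain C57BL/6) in which doxycycline (Dox) induces Isl1-Lhx3, a fusion of both factors. All cells were aggregates that had spent 2 days in suspension in stem cell medium with LIF and 2 days with 0.5 µM all-trans retinoic acid. For the final 2 to 3 days retinoic acid was continued, either with no Dox or with 2 µg/mL Dox, and 2 libraries of total RNA, described as biological duplicates, were made for each condition. No group combined Dox with cells that lack the transgene, so an effect of Dox itself and an effect of Isl1-Lhx3 cannot be told apart. The labels name neither the promoter of the transgene nor whether the line is a single clone.

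LIM-homeodomain proteins bind DNA through a homeodomain and bind partner proteins through a pair of zinc-finger LIM domains. The nuclear adaptor Ldb1 holds them together: it self-associates and binds LIM domains. In newborn spinal motor neurons Ldb1 binds Isl1, and Lhx3 joins by binding Isl1, in a complex that activates motor neuron genes, Mnx1 among them. LIM-only proteins (Lmo) have LIM domains but no homeodomain, and compete with the DNA-binding factors for Ldb1.

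Each library held between 24020832 and 53903936 counts in genes, with the larger totals in the libraries with Dox. Levels are given as CPM, the counts summed over the parts of a gene per 1000000 counts after TMM scaling, a correction for differences in RNA composition between libraries. The level of every gene is listed in the order no Dox replicates 1 and 2, then Dox replicates 1 and 2. Changes are log2 fold changes of Dox against no Dox with their standard error (SE) from edgeR's quasi-likelihood test, and a gene is called higher or lower where its p, adjusted over all genes by the Benjamini-Hochberg method, is under 0.05.

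All 10 genes passed the filter on low counts. Lhx3, Lhx4 and Ldb2, with 18, 4 and 18 counts in the libraries without Dox, passed it only through those with Dox. These genes could not have been called lower. Of the 10 genes 6 were called higher with Dox (Lhx3, Lhx4, Mnx1, Isl1, Lmo1 and Lmo4), and none was called lower. Of all 14283 genes tested, 1.23% were called higher (175) and 0.056% lower (8), and with any 1 library left out these numbers were 276 to 283 and 22 to 124. At an unadjusted p under 0.05, 8 of the 10 were higher and 0 lower, against 6.26% and 4.02% of all genes tested. DESeq2 called 7 higher and 0 lower, against 2.82% and 0.812% of all genes. Both libraries with Dox lay above both without Dox in 8 of the 10 genes, against 18.9% of all genes tested, and below both in 0 of the 10, against 19.9%. The median log2 fold change was 2.21 over the 10 genes and -0.014 over all genes tested. Isl1 and Lhx3 are the genes of the induced construct, so that their rise follows from the design. Of the other 8 genes 4 were called higher and 0 lower, 6 had both libraries with Dox above both without, and the median was 1.69. Ranked by the size of the rise among the 175 genes called higher, Lhx3 was number 3, Lhx4 number 8, Mnx1 number 19, Isl1 number 29, Lmo1 number 96 and Lmo4 number 147.

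**Figure D1:**
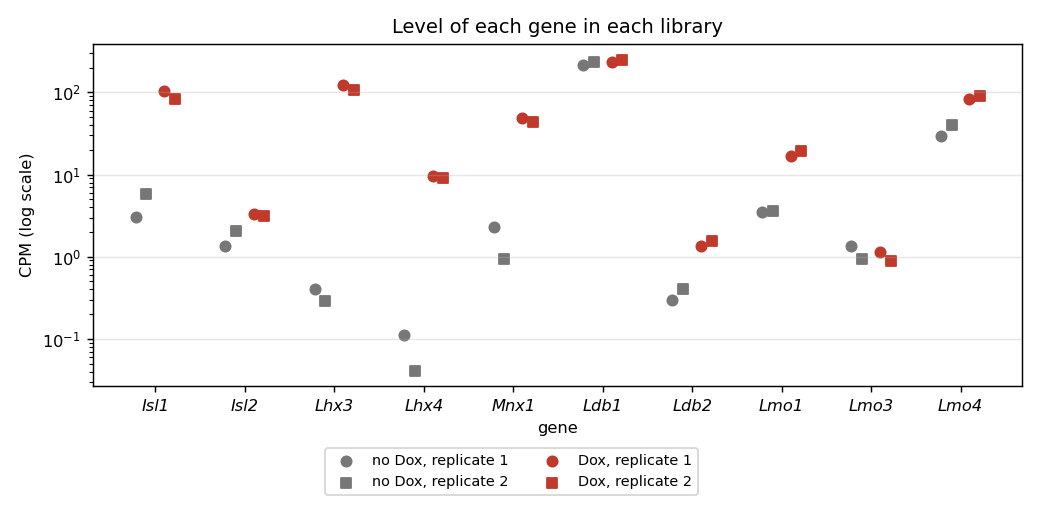
Level of each of the 10 genes in each library, as CPM on a log axis, with 1 point per library. Ldb1 stayed between 214 and 251 CPM in all 4 libraries, while Lhx3 went from under 1 CPM without Dox to over 100 CPM with Dox.

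The stretches just upstream of the 4 genes with the largest rises among those described here are shown, because homeodomains bind TAAT cores. Each is the 250 bases before the start site, on the strand of the gene, from RefSeq on build GRCm38.p6, and each start site lies within 1 base of the 5′ end of the transcript that names the counted gene. Capitals mark TAAT or, for the other strand, ATTA. The windows are Lhx3 at chr2:26206576-26206825, Lhx4 at chr1:155742028-155742277, Mnx1 at chr5:29478471-29478720 and Isl1 at chr13:116309689-116309938, all on the minus strand.
Lhx3: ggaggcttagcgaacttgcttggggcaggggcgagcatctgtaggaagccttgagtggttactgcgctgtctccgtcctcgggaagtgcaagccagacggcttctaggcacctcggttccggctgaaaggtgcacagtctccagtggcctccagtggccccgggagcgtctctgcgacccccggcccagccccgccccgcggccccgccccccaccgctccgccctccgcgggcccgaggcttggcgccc
Lhx4: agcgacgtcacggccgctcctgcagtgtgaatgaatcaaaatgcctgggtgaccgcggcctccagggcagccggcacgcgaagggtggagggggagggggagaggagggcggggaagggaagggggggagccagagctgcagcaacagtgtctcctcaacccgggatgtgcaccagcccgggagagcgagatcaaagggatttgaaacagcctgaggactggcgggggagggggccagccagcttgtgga
Mnx1: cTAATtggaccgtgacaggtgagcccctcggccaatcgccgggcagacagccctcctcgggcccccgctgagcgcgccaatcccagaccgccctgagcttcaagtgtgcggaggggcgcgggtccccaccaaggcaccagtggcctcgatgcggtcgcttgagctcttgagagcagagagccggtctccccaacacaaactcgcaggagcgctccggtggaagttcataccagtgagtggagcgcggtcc
Isl1: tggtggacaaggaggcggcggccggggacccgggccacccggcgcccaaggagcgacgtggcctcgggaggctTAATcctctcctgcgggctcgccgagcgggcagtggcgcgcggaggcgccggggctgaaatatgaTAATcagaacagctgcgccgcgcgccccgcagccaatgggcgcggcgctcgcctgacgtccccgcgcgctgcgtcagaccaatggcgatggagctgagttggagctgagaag

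These windows were rich in G and C, with 70.8% in Lhx3, 66.0% in Lhx4, 66.4% in Mnx1 and 71.2% in Isl1. The window of Isl1 held 2 TAAT cores, that of Mnx1 held 1 at its upstream end, and those of Lhx3 and Lhx4 held 0. RefSeq has another start site for Lhx3, not that of the counted transcript, and its window (chr2:26208250-26208499) held 1. Over all 32841 RefSeq promoter windows of the same length, 54.9% held at least 1 TAAT core on either strand and 30.8% at least 2. A match describes letters in the window and not a bound site. Isl1 and Lhx3 are genes of the construct, and their reads cannot be divided with certainty between the transgene and the genes of the cells. Whether the rise of any of these genes involves its window was not tested. RefSeq windows matched 9 of the 10 genes, all but Ldb2.

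Lhx3, the LIM-homeodomain factor that joins Isl1 in motor neurons and acts without it in V2a interneurons, stood at 0.404, 0.286, 125 and 108 CPM. It was almost absent from the libraries without Dox (11 and 7 counts) and high in both with Dox (4658 and 5890 counts), with no overlap. Its log2 fold change was 8.37 (SE 0.22, adjusted p = 0.000279 in edgeR's quasi-likelihood test). By mean CPM it exceeded 2.3% of all genes tested without Dox and 84.5% with Dox. Taken from its largest part alone, meaning the part with the most counts and here the last exon, the log2 fold change was 7.24.

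Isl1, which marks motor neurons from their exit from the cell cycle and is also made by sensory neurons, stood at 3.08, 5.84, 104 and 82.4 CPM. Without Dox it was present at a low level, with 84 and 143 counts. It rose 21.0-fold (log2 fold change 4.39, SE 0.31, adjusted p = 0.00351 in edgeR), and its groups did not overlap. Taken from its largest part by counts alone, the log2 fold change was 5.02. That part is exon 5, which is short and wholly coding, and the longer last exon rose less, as given below.

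The reads of Isl1 and Lhx3 cannot be divided with certainty between the transgene and the genes of the cells, because the counts carry no position within a part, and the sources used here do not say which stretches of either gene the construct holds. The counts of single exons are therefore given. In both genes the 6 counted parts match the 6 exons of the reference transcript, of which exons 2 to 5 are wholly coding. Levels per kb of exon are set side by side along the gene, with a limit. A read that spans exons may be counted in each, which can raise short inner exons per kb above long outer ones.

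Without Dox, the last exon of Isl1, only 8.9% of which is coding, stood at 1.0 and 2.29 CPM per kb, against 1.62 and 2.93 CPM per kb in the wholly coding exons. With Dox the last exon stood at 11.1 and 10.7 CPM per kb, and the wholly coding exons at 96.4 and 73.9 CPM per kb. The last exon was below the coding exons in every library, by the wider margin with Dox. The last exon reached 61.9% and 78.3% of the coding level without Dox, and 11.5% and 14.5% with Dox.

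Counted as a share of all Isl1 counts, the last exon held 42.9% (95% exact binomial interval 32.1 to 54.1) and 51.7% (43.3 to 60.2) without Dox. It held 14.0% (12.9 to 15.1) and 17.1% (16.1 to 18.3) with Dox. The intervals of the groups do not overlap, though they cover counting error only, and with 2 libraries against 2 an exact permutation test of the share cannot give a two-sided p below 0.333. The last exon makes up 52.3% of the exon length.

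Tested part by part over 129524 parts of all genes, each of the 4 wholly coding exons of Isl1 was called higher, with log2 fold changes of 4.98 to 5.53 and adjusted p of 0.00492 to 0.0112 in edgeR. Over all parts tested, 0.147% were called higher (191, and 510 to 1414 with any 1 library left out). Of the 66 parts of the 10 genes 48 were tested, of which 16 were called higher and 0 lower. Of those 16, 4 were exons of Isl1 and 6 of Lhx3, the genes of the construct. At an unadjusted p under 0.05 in edgeR, 33 were higher and 0 lower, against 2.44% and 0.792% of all parts tested. Exons of 1 gene are not independent. Several exons of Lhx3 and Lhx4 passed the filter on low counts through the libraries with Dox alone, and could not have been called lower. The last exon of Isl1 changed by a log2 value of 2.73 (SE 0.38, adjusted p = 0.0882 in edgeR). The first exon, 9.5% coding, had a value of 3.02 (SE 0.50, adjusted p = 0.165), so that neither was called in the fit of all 4 libraries. With any 1 library left out the log2 fold change of the last exon was 2.25 to 3.44, the highest without no Dox replicate 2. Both libraries with Dox lay above both without in all 6 exons of Isl1, against 13.9% of all parts tested. The difference between coding and outer exons was not tested.

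In Lhx3 all 6 exons were called higher (adjusted p of 0.00346 to 0.0160 in edgeR). The last exon, 32.3% of it coding, went from 0.283 and 0.158 to 33.9 and 33.4 CPM per kb, and the wholly coding exons went from 0.0527 and 0.117 to 106 and 85.2 CPM per kb. Exon 2 had 0 counts without Dox and 1500 with Dox, at least 281-fold higher against a floor of 3 counts over the group. Exon 1 had 0 counts against 544, at least 102-fold higher. With Dox the last exon of Lhx3 lay at 31.9% and 39.2% of its coding exons and the first exon at 27.9% and 26.8%. Without Dox the gene had too few counts (18 in both libraries together) for such ratios to be read.

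**Figure D2:**
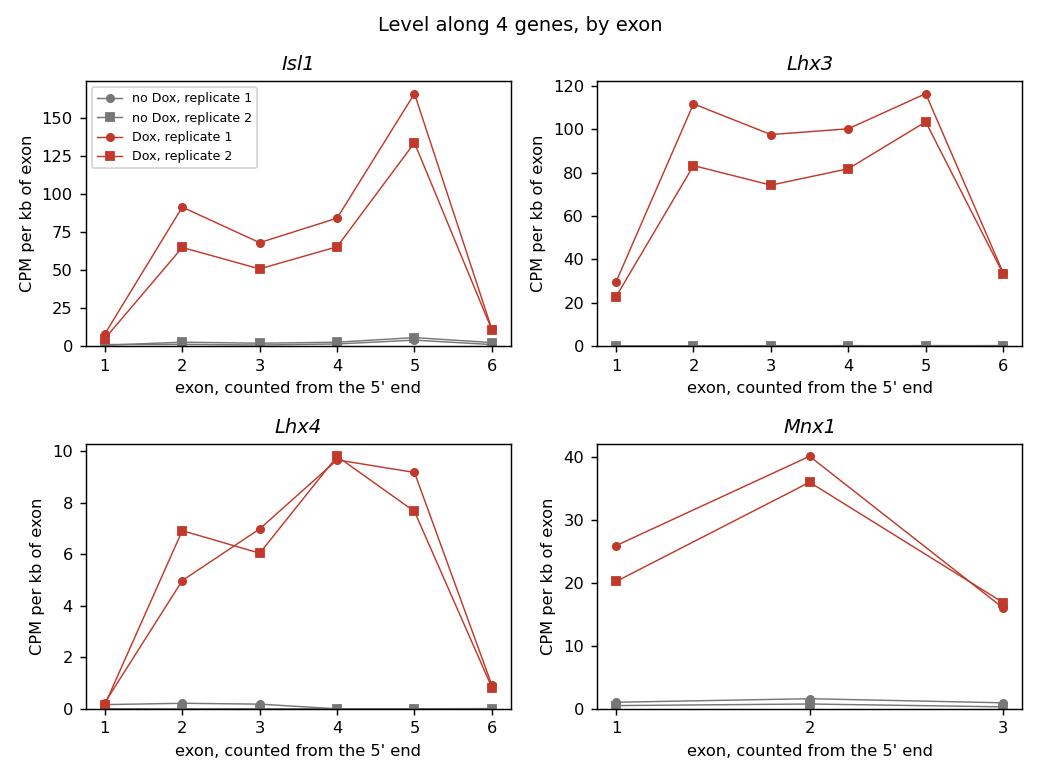
Level of each exon, in CPM per kb of exon, along Isl1, Lhx3, Lhx4 and Mnx1, with exons counted from the 5′ end and 1 line per library. In Isl1 with Dox the wholly coding exons 2 to 5 stand at 50.8 to 166 CPM per kb, above the first and last exons at 4.96 to 11.1 CPM per kb. Both ends are below the middle in Lhx3 and Lhx4 too.

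Lhx4, the close relative of Lhx3 that acts with it in early motor neurons, was not part of the induced construct as the labels name it. It stood at 0.110, 0.0408, 9.61 and 9.08 CPM, from 3 and 1 counts without Dox and 359 and 496 counts with Dox. The groups lay far apart. Its log2 fold change was 6.86 (SE 0.39, adjusted p = 0.00160 in edgeR), and the ratio of summed counts was 120 with an exact 95% interval of 46.8 to 442 for counting error. Leaving out no Dox replicate 1, which held 3 of the 4 counts, moved the log2 fold change to 7.74.

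The reads of Lhx4 with Dox were unevenly spread. Of 855 counts in the libraries with Dox, 4 fell in the first exon (226 bases, 33.6% coding), or 0.557% and 0.403% of the counts of the gene. That exon was singled out after its values were seen. The remaining exons, 2 to 6, went from 3 to 851 counts, a ratio of 160 (exact 95% interval 54.4 to 775). The last exon was the 1 exon of Lhx4 called higher among the 5 tested (log2 fold change 7.45, SE 0.63, adjusted p = 0.0160 in edgeR), and the others had adjusted p between 0.0574 and 0.111. With Dox, exons 2 to 5 of Lhx4 together stood at 7.62 and 7.48 CPM per kb and its long last exon, 8.6% coding, at 0.916 and 0.826 CPM per kb. A low last exon was thus seen in Lhx4 as well as in Isl1, at 12% and 11% of the coding level. In Lmo3, whose coding level rests on few counts, it was at 15.6% and 9.73% with Dox, and in Lmo1 at 60.4% and 66.3%.

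Isl2, the paralogue of Isl1 that appears in motor neurons after it, stood at 1.36, 2.08, 3.29 and 3.13 CPM. Both libraries with Dox were above both without. The log2 fold change was 0.90 (SE 0.30, 95% interval 0.17 to 1.64, adjusted p = 0.35 in edgeR), and Isl2 was not called. None of its 3 tested exons was called either. Its last exon stood at 65.1%, 71.6%, 128% and 98.2% of its coding exons per kb in the 4 libraries, higher in both with Dox.

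Mnx1, a homeodomain factor without LIM domains that holds motor neuron identity against that of V2a interneurons, stood at 2.31, 0.939, 48.5 and 43.9 CPM. The libraries without Dox differed 2.46-fold from each other, and both were far below those with Dox. It rose 28.0-fold (log2 fold change 4.81, SE 0.36, adjusted p = 0.00393 in edgeR). Without no Dox replicate 1, the higher of the pair, the log2 fold change was 5.62.

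All 3 exons of Mnx1 were called higher, with log2 fold changes of 4.88 (first exon), 4.96 (exon 2) and 4.68 (last exon) and adjusted p of 0.0102 to 0.0227 in edgeR. The last exon of Mnx1 stood at 59.5% and 40.3% of the wholly coding exon per kb without Dox and at 39.9% and 46.9% with Dox. Its share of the Mnx1 counts was 49.2% and 39.1% without Dox and 39.5% and 46.0% with Dox, so the groups overlapped. First and last exons were thus lower per kb than the coding exon with and without Dox.

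The 5 genes whose profiles over the 4 libraries were nearest to that of Mnx1 were Slit2, Slc18a3, Mfap3l, Stk32a and Cbln1. They were taken from 10625 tested genes whose mean reached 5 CPM, with predicted genes and genes known only by an identifier passed over. The measure was the Euclidean distance between log2(CPM + 0.5) values centred on each gene's mean, and ran from 0.566 for Slit2 to 0.807 for Cbln1. Slit2, a secreted axon guidance ligand, stood at 84.1, 56.5, 1267 and 1048 CPM. Slc18a3, the vesicular acetylcholine transporter, stood at 0.624, 0.490, 25.7 and 25.5 CPM. With 4 libraries in 2 groups, such nearness is a description.

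**Figure D3:**
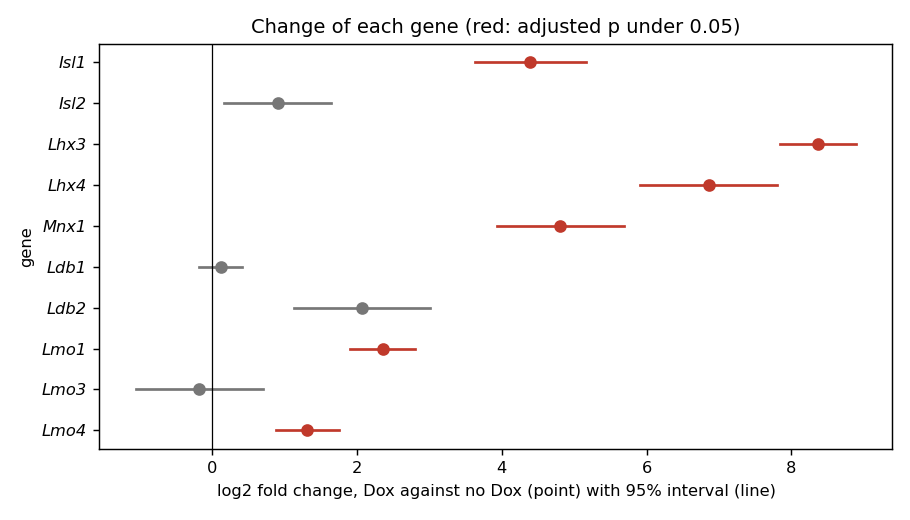
Log2 fold change of each of the 10 genes, Dox against no Dox (points), with its 95% interval (lines). The 6 genes in red passed an adjusted p of 0.05, from 1.31 for Lmo4 to 8.37 for Lhx3, and Ldb1 and Lmo3 have intervals that span 0.

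Ldb1, the adaptor of the complex, was the most abundant of the 10 genes and stood at 214, 236, 235 and 251 CPM. The groups overlapped, since no Dox replicate 2 lay just above Dox replicate 1. Its log2 fold change was 0.11 (SE 0.12, 95% interval -0.18 to 0.41, adjusted p = 0.866 in edgeR). The interval lies below those of the 6 genes called higher. None of its 12 parts was called, and their log2 fold changes ran from -0.002 to 0.523.

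Ldb2, the second LIM-domain-binding adaptor, was rare, at 0.294, 0.408, 1.37 and 1.57 CPM. The groups did not overlap. Its log2 fold change of 2.07 (SE 0.39, 95% interval 1.13 to 3.01) had an unadjusted p of 0.00164 and an adjusted p of 0.0822 in edgeR, and so missed the threshold. It had 8 and 10 counts without Dox and 51 and 86 with Dox, and the count of its largest part alone changed by 1.13.

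Most of the difference in Ldb2 counts lay outside its largest part, a split made after its values were seen. That part, at the 3′ end, had 6, 10, 22 and 41 counts, a ratio of 2.21 (exact 95% interval 1.26 to 4.11). The other 9 parts together had 2, 0, 29 and 45 counts, a ratio of 20.8 (5.56 to 175). A long noncoding RNA gene overlaps Ldb2 in the reference, and whether the counting used strand is not stated, so reads from both cannot be told apart.

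Lmo4, the LIM-only protein most abundant here and an Ldb1 competitor present in motor neurons, stood at 29.3, 40.5, 82.1 and 91.2 CPM. Both libraries with Dox lay above both without, the nearest pair 2.02-fold apart. It rose 2.48-fold (log2 fold change 1.31, SE 0.18, adjusted p = 0.0342 in edgeR). The call was near the threshold: where genes under a mean of 5 CPM were left out, the adjusted p was 0.0528. None of its 7 tested parts was called alone, although all 8 were higher in both libraries with Dox.

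Part 6 of Lmo4, picked out after its values were seen, had 4, 4, 53 and 77 counts, a ratio of 9.14 (exact 95% interval 4.50 to 21.6). Its adjusted p in the fit of parts was 0.0882, and it held 0.501% and 0.403% of the Lmo4 counts without Dox and 1.73% and 1.55% with Dox. Part 8 gave a ratio of 2.02 (1.61 to 2.55), nearer to that of the gene. The parts of Lmo4, like those of Ldb1 and Ldb2, did not match the reference exons 1 to 1, so they are given by number along the chromosome.

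Lmo1, a LIM-only protein of the nervous system, stood at 3.49, 3.59, 16.9 and 19.3 CPM. Its replicates were close and the groups well apart. It rose 5.11-fold (log2 fold change 2.35, SE 0.18, adjusted p = 0.00400 in edgeR). Of its 4 exons, all higher in both libraries with Dox, 2 were called, and its last exon held a steady share of the counts, at 41.1%, 40.9%, 39.8% and 41.4%. Its first exon stood at 12.1%, 15.1%, 5.44% and 7.57% of its wholly coding exons per kb. Lmo3, the third LIM-only gene among those described here, stood at 1.36, 0.939, 1.15 and 0.897 CPM, with overlapping groups. Its log2 fold change was -0.18 (SE 0.36, 95% interval -1.06 to 0.71, adjusted p = 0.957 in edgeR). Leaving out no Dox replicate 1 or Dox replicate 2 turned its sign, to 0.12 and 0.02. Long noncoding RNA genes overlap both Lmo1 and Lmo3 in the reference, with the same limit as in Ldb2.

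Divided by exon length, the levels of the 10 genes can be set against each other, with the limit that the counted parts of Ldb1, Ldb2 and Lmo4 did not match the reference exons that gave their lengths (12 parts against 13, 10 against 11 and 8 against 9). Without Dox the order by mean CPM per kb was Ldb1 (84.1), Lmo4 (17.3), Lmo1 (2.76), Isl1 (1.77), Isl2 (0.927), Mnx1 (0.724), Lmo3 (0.313), Lhx3 (0.155), Ldb2 (0.135) and Lhx4 (0.0137). Neighbours in this order whose libraries overlapped were Isl2 with Mnx1 and Lhx3 with Ldb2. Without Dox the adaptor and a LIM-only competitor were thus the most abundant of the 10, and every DNA-binding factor was under 3 CPM per kb.

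With Dox the order was Ldb1 (90.9), Lhx3 (52.3), Lmo4 (43.0), Isl1 (37.1), Mnx1 (20.6), Lmo1 (14.1), Isl2 (1.73), Lhx4 (1.69), Ldb2 (0.565) and Lmo3 (0.279). Lmo4 overlapped with Isl1, and Isl2 with Lhx4. Where only wholly coding exons were counted, a choice made after seeing the data, Lhx3 stood at 95.7, Isl1 at 85.1, Mnx1 at 38.0, Lmo1 at 28.6 and Lhx4 at 7.55 CPM per kb with Dox, which is 1.83 to 4.46 times the levels over all exons. Lmo3 then stood at 1.72 CPM per kb, 6.16 times its level over all exons, and Isl2 at 1.71. For Lmo3 this value rests on exon 4 alone, of 126 bases, with 8 and 12 counts with Dox. Its exon 3, which is 96.3% coding and was left out by this rule, stood at 0.500 and 0.684 CPM per kb. Whether Lmo3 is level with Isl2 cannot be read from so few counts.

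Summed by role, the 4 LIM-homeodomain genes stood at 2.16, 3.58, 101 and 84.6 CPM per kb, and Ldb1 and Ldb2 together at 80.1, 88.3, 88.4 and 94.4 CPM per kb. The adaptor RNA thus exceeded that of the LIM-homeodomain factors 37.1-fold and 24.7-fold without Dox, and the ratio was 0.876 and 1.12 with Dox. The 3 LIM-only genes described here, without Lmo2, stood at 17.6, 23.2, 54.2 and 60.6 CPM per kb. Relative to the LIM-homeodomain factors they went from 8.17-fold and 6.48-fold to 0.537 and 0.716. Of the LIM-homeodomain sum with Dox, 97.4 and 81.3 CPM per kb came from Isl1 and Lhx3, where a transcript of the induced fusion is counted under both genes. Isl2 and Lhx4 together stood at 0.752, 1.13, 3.52 and 3.33 CPM per kb. Over the wholly coding exons of the 4 LIM-homeodomain genes, their sum was 212 and 168 CPM per kb with Dox. The ratio of Ldb1 and Ldb2 to it was 0.418 and 0.561, and that of the LIM-only genes 0.256 and 0.360. The Ldb and LIM-only genes were still counted over all exons here, so these ratios set unlike measures side by side. Lmo1, for 1, stood 2.03 times higher over its wholly coding exons than over all exons. With 2 libraries a group, an exact permutation test of such a ratio cannot go below a two-sided p of 0.333, and RNA levels do not give protein levels.

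**Figure D4:**
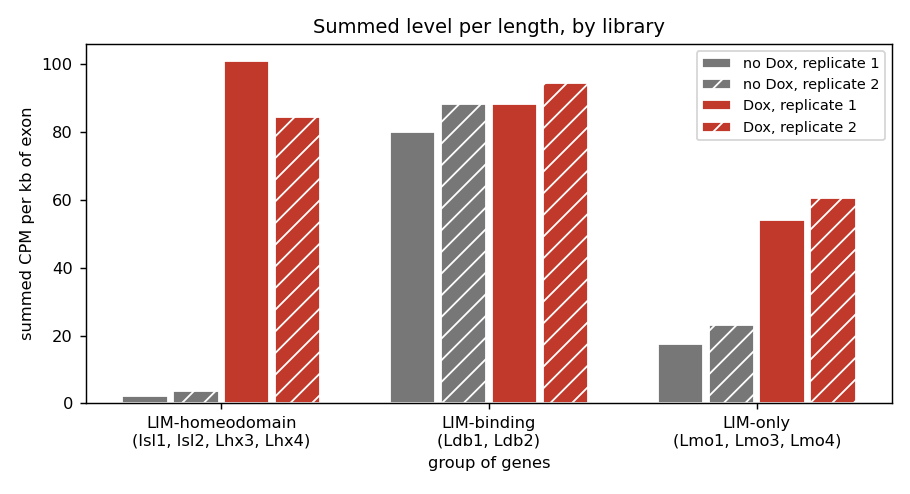
Summed level of each group of genes in each library, in CPM per kb of exon, with 1 bar per library and a linear axis from 0. The LIM-homeodomain genes rise from 2.16 and 3.58 to 101 and 84.6, Ldb1 and Ldb2 stay between 80.1 and 94.4, and the LIM-only genes go from 17.6 and 23.2 to 54.2 and 60.6.

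The balance within each role also differed between conditions. The ratio of Lhx3 to Isl1 per kb was 0.148 and 0.0554 without Dox and 1.35 and 1.48 with Dox, and over wholly coding exons alone it was 0.0325, 0.0400, 1.10 and 1.15. Over coding sequence, both induced factors were thus at nearly equal levels with Dox. Lmo4 exceeded Lmo1 5.35-fold and 7.18-fold without Dox and 3.10-fold and 3.01-fold with Dox. Ldb1 exceeded Ldb2 at least 155-fold in each library.

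LIM-homeodomain genes of other neurons were read beside these. Of 8 listed (Lhx1, Lhx2, Lhx5, Lhx6, Lhx8, Lhx9, Lmx1a and Lmx1b), all were tested and 0 were called in either direction by edgeR, with 2 higher and 2 lower at an unadjusted p under 0.05 and 1 lower by DESeq2. Their median log2 fold change was -0.102. The most abundant, Lhx1, a factor of several interneuron classes, stood at 16.1, 8.49, 5.59 and 2.71 CPM, a log2 difference of -1.58 (SE 0.44, adjusted p = 0.244 in edgeR). Lhx5, often present with Lhx1, stood at 12.4, 6.90, 5.43 and 3.09 CPM, a log2 difference of -1.19 (SE 0.39, adjusted p = 0.331 in edgeR). In both genes each library with Dox was below each without. Lhx9 and Lhx8, named after their values were seen, were the lowest of the 8 and higher in both libraries with Dox. Both passed the filter on low counts only through those libraries, and could not have been called lower. Lhx9 stood at 0.0734, 0.0408, 0.589 and 0.622 CPM (log2 difference 3.31, SE 0.60, adjusted p = 0.0737 in edgeR), and Lhx8 at 0.0367, 0.245, 1.42 and 0.586 CPM (2.82, SE 0.83, adjusted p = 0.271). Leaving out Dox replicate 1 gave -2.18 for Lhx1 (adjusted p = 0.000949) and -1.65 for Lhx5 (adjusted p = 0.0144), and over all settings tried the adjusted p ran from 1.3e-06 to 0.449 for Lhx1 and from 6.24e-05 to 0.71 for Lhx5. Without Dox replicate 2, 1 of the 8 was called higher. Without no Dox replicate 1 the median was 0.069.

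Further nuclear partners of LIM complexes are Ssbp2, Ssbp3, Ssbp4, Rlim and Lmo2. Of 5 tested, 0 were called in either direction by edgeR and by DESeq2, with 2 higher and 0 lower at an unadjusted p under 0.05, and the median log2 fold change was 0.013. Rlim, a ubiquitin ligase that targets Ldb1 and LIM proteins, stood at 255, 251, 235 and 271 CPM. Ssbp3, which shields Ldb1 from degradation, stood at 207, 222, 221 and 212 CPM. Lmo2, a further LIM-only gene, named after its values were seen, stood at 1.36, 1.10, 0.776 and 0.677 CPM. It was lower in both libraries with Dox (log2 difference -0.765, SE 0.34, adjusted p = 0.538 in edgeR), while Ssbp2 and Ssbp4 were higher in both.

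Progenitor factors that act before the LIM genes in the ventral spinal cord were also read. Of 8 listed (Olig1, Olig2, Nkx6-1, Nkx6-2, Nkx2-2, Neurog2, Pax6 and Irx3), 7 were tested, 1 was called higher and 0 lower by edgeR. At an unadjusted p under 0.05 there were 1 higher and 3 lower, against 6.26% and 4.02% of all genes tested. DESeq2 called 2 lower, against 0.812% of all genes, and the median of the list was -0.040. With 1 library left out, 0 to 3 were called lower and the median ran from -0.52 (without Dox replicate 1) to 0.35 (without Dox replicate 2). Nkx6-2, a homeodomain factor of ventral progenitors, stood at 2.57, 3.67, 25.9 and 32.6 CPM, with no overlap. Its log2 fold change was 3.23 (SE 0.24) and its adjusted p 0.00389 in edgeR. Olig2, which defines the motor neuron progenitor domain, stayed at 1.40 to 1.93 CPM in the 4 libraries.

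Markers of other cells that make these factors were compared beside the rises. Cholinergic motor neuron markers summed to 6.57, 7.80, 340 and 305 CPM in the 4 libraries. Isl1, Lhx3 and Mnx1 themselves were among the 6 listed, and made up most of the sum with Dox. All 6 were called higher, against 1.23% of all genes tested, and for Isl1 and Lhx3 this follows from the design. Lhx3, Chat and Slc5a7 passed the filter on low counts only through the libraries with Dox, and could not have been called lower. Of the others, Chat, the enzyme that makes acetylcholine, was at 0.0367, 0.122, 18.1 and 16.4 CPM. Slc18a3 was at 0.624, 0.490, 25.7 and 25.5 CPM, and Slc5a7 at 0.110, 0.122, 18.5 and 28.7 CPM. The libraries without Dox held little Chat and Lhx3, and low levels of Isl1 and Mnx1. Pan-neuronal markers summed to 313, 274, 224 and 174 CPM, all 6 below 0 on the log2 scale, against 7558 of all 14283 genes tested. By edgeR 0 were called, with 3 lower at an unadjusted p under 0.05, against 4.02% of all genes. DESeq2 called 2 lower, against 0.812% of all genes. In bulk samples fewer cells of a type and less RNA per cell cannot be told apart.

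Of pancreatic endocrine markers Ins1, Ins2 and Gcg were at 0, and the sum of 5 was at most 0.220 CPM. Cardiac markers summed to between 7.53 and 8.94 CPM. Sensory neuron markers, relevant to Isl1, summed to 74.9, 68.9, 47.6 and 46.0 CPM, with 0 of 6 called higher by edgeR and 1, Pou4f1, lower. At an unadjusted p under 0.05, 3 were lower, against 4.02% of all genes tested, and DESeq2 called 2 lower, against 0.812%. Primitive and parietal endoderm markers were high throughout, at 33950 to 37800 CPM over 8 genes, and pluripotency markers summed to 74.6 to 95.5 CPM, with Nanog and Pou5f1 under 1 CPM. Of these lists none had a gene called higher with Dox by edgeR or DESeq2, and at an unadjusted p under 0.05 only 1, a pluripotency gene, was higher.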

How the data were processed

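RNA libraries were prepared with the TruSeq method from 2 samples without and 2 with Dox, per the labels' protocols. TopHat and build mm9 are named, per the submitters' processing notes, with no version. Which program counted the reads, and whether it used strand, is not given in the sources used here. As deposited by the authors, values are whole-number counts for 208825 parts of genes, named by RefSeq transcripts without positions, and 4 rows that name no gene. Reads outside genes were 13.6% to 15.8% and ambiguous reads 0.41% to 0.52% of counts, and both stayed out of library totals and tests. A read that spans parts may be counted in each.

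Parts were summed to 21822 gene units. Of 27601 identifiers, 97.1% matched a symbol through RefSeq (GRCm38.p6) or GENCODE. Since GRCm38 is not the build of the files, it gave only names, exon order, exon lengths and neighbours, and the promoter sequences with their own coordinates. Part numbers followed the chromosome in ascending order (95.8% of plus-strand and 95.6% of minus-strand genes fitted better so).

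The 2 groups were compared with edgeR 4.0.16 in R 4.3.3 (quasi-likelihood F test, robust dispersions, TMM scaling, default filter on low counts, Benjamini-Hochberg threshold 0.05), first per gene and then per part, on all features. Scripts were tested on simulated data. The biological coefficient of variation was 0.148. Counts of replicates were further apart than sampling noise allows, with a chi-square divided by its degrees of freedom of 36.5 (no Dox) and 32.6 (Dox). The alternatives were DESeq2 1.42.0, limma-voom (limma 3.58.1), other scalings and filters, the largest part as the count, a replicate block and leaving out each library. The largest part is the one with the most counts over all libraries. Exact intervals of counts cover counting error only.

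The genes and lists were chosen with earlier results of these data known. The genes named are the 10 members, up to 4 called genes of each list with the smallest adjusted p (with no call, the 2 most abundant), and the 5 profiles nearest to Mnx1. Other marker genes, exons and neighbours are named because their values were looked at afterwards. Each p sets the difference between the groups against the spread between libraries of a group, which is estimated in part from other genes or parts. The result of 1 marker list is not reported here.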

Additional observations from a re-analysis of the deposited data

How the results depend on the processing

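Over 12 alternatives, Lhx3, Isl1, Mnx1, Lmo1 and (over the 11 that tested it) Lhx4 were called higher in each. Their log2 fold changes ran from 7.24 to 8.66, 4.01 to 5.02, 4.32 to 5.62, 2.27 to 2.45 and 6.36 to 7.74. Lmo4 missed only where genes under a mean of 5 CPM were left out (1.326, adjusted p = 0.0528). Ldb2 passed with DESeq2 (2.079, adjusted p = 0.0473) and with no filter (2.089, adjusted p = 0.0447). Lmo3 turned sign when 1 library was left out, at -0.418 to 0.124, and at 0.018 without Dox replicate 2. Rlim, at 0.00, turned sign with DESeq2 size factors (0.003), library totals (0.021), DESeq2 (0.003), no filter (0.021), the 5 CPM filter (0.013), the largest part (0.015) and without no Dox replicate 1 (0.015) or Dox replicate 1 (0.098, the range with 1 library left out being -0.089 to 0.098), and Ssbp3 with the largest part (-0.005) and without no Dox replicate 1 (-0.028) or Dox replicate 1 (-0.019, range -0.028 to 0.065). The cause was not tested in any of these.

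Over all genes, calls higher and lower were 403 and 116 with DESeq2, 295 and 46 with no filter, and 104 and 4 over 5 CPM. Calls lower were 16 with library totals, 13 with limma-voom and 14 with the largest part. With 1 library left out they ranged from 276 to 283 and from 22 to 124, and the lone library of a group is then assumed to vary like the others. The prior degrees of freedom of the gene fit were 4.02 with all libraries and 8.86 to 49.69 with 1 left out, and those of the part fit went from 4.75 to infinite.

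Other LIM-homeodomain genes had 1 lower call with DESeq2, a range of 0 to 1 higher and 0 to 2 lower calls with 1 library left out, and a median of -1.372 over 5 CPM and -0.502 with the largest part. The median of other partners was 0.248 over 5 CPM, and 0.015 to 0.098 with 1 library left out. Progenitor factors had 1 lower call with library totals, 2 with DESeq2, 2 with no filter and 1 with the largest part, 0 to 3 with 1 library left out, and medians of -0.632 over 5 CPM and of -0.52 to 0.349 with 1 library left out. The last exon of Isl1 ran from 2.246 to 3.437 with 1 library left out. Wholly coding exons alone, chosen after seeing the data, gave levels with Dox of 85.12 (Isl1), 95.68 (Lhx3), 7.554 (Lhx4), 37.99 (Mnx1), 28.59 (Lmo1) and 1.721 CPM per kb (Lmo3), since the outer exons are left out. The value of Lmo3 rests on exon 4 alone, with 8 and 12 counts. Over the coding exons of the LIM-homeodomain genes, the mean ratio of Ldb1 and Ldb2 to them with Dox was 0.4895 in place of 0.998, and that of the LIM-only genes 0.308 in place of 0.6265. The Ldb and LIM-only genes were still counted over all exons, so the ratios 0.4895 and 0.308 set unlike measures side by side.

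Replicate numbers come from sample titles, and nothing says that they pair the samples. The differences between replicates 1 and 2 correlated across genes between the groups (0.605). With the replicate number as a block, 1047 genes were called higher and 869 lower. Isl2 (0.909, adjusted p = 0.0213), Ldb2 (2.061, adjusted p = 0.00126) and the last (2.757) and first (3.044) exons of Isl1 passed under the block. So did 2 of the other LIM-homeodomain genes upward and 2 downward, 2 of the other partners upward and 3 progenitor factors downward. The prior degrees of freedom under the block were 16.57. Depth limits Lhx4, Ldb2 and Lhx3 without Dox, at 4, 18 and 18 counts.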

Other observations

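The neighbours of the 10 genes on the chromosome were looked at after the gene results were known, with gene order taken from GRCm38. Of 20 flanking protein-coding genes 19 were tested. In edgeR 2 were called higher and 0 lower, against 1.23% and 0.056% of all genes tested. The median log2 fold change of the neighbours was 0.02. Parp8, next to Isl1, stood at 13.9, 13.6, 28.4 and 29.5 CPM in the no Dox and then the Dox libraries, a log2 difference of 1.07 (SE 0.14, adjusted p = 0.0254 in edgeR), and with its largest part as the count the adjusted p was 0.166. Nacc2, next to Lhx3, stood at 12.4, 11.7, 25.3 and 22.4 CPM, a log2 difference of 0.98 (SE 0.15, adjusted p = 0.0487 in edgeR), and 4 of 12 alternatives put its adjusted p between 0.0502 and 0.1. The neighbours of Mnx1 were not called: Nom1 had a log2 fold change of -0.15 (adjusted p = 0.755) and Ube3c one of 0.30 (adjusted p = 0.647).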
